A study of Oryctolagus cuniculus with 2 samples.

Results

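Heat shock proteins and their co-chaperones are the machinery that folds new proteins, holds damaged ones in solution and hands them on for refolding or breakdown. HSP70 proteins work in cycles that J proteins start and nucleotide exchange factors end, HSP90 acts later on proteins that are nearly folded, small heat shock proteins bind unfolding proteins without using ATP, and mitochondria and the endoplasmic reticulum have chaperones of their own. Heat shock factors raise many of the cytosolic genes under stress, and the unfolded protein response raises those of the endoplasmic reticulum. In the retina small heat shock proteins are best known from glia and ganglion cells after injury.

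The genes were chosen by symbol alone: those named as HSPA, HSPB, HSP90 or DNAJ genes in the platform annotation, and a list of further chaperones, heat shock factors and BAG proteins. On the array 74 probe sets carried such a symbol, for 73 genes of 15605 named genes, and 70 of the 73 reached a log2 signal of 5 in at least 1 array, the limit the study's methods set. None of these 70 genes passed through the RVO array alone, since the control signals of all 70 were 5.11 or higher. The other genes were Hspa6, at 4.54 in control and 4.76 in RVO retina, Dnajc5b, at 4.19 and 4.30, and Dnajb7, at 3.42 and 3.53. A further 10 genes that RefSeq lists for the rabbit under such symbols had no probe set named for them in this annotation, among them Hspa8, Dnaja1, Dnajb1 and Calr, and no probe set was named Hspa1a or Hspa1b, the heat-inducible HSP70 genes, so these were not analysed here.

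Retinal RNA of Dutch rabbits was measured 7 days after retinal vein occlusion (RVO), induced in the right eye by laser occlusion of the retinal veins, with the untreated left eye as the control. The laser-irradiated region had been removed with a 3-mm trepan before RNA was taken. Each condition was hybridized to 1 array, and although the left eyes served as controls in all animals, the methods do not say which animal or animals gave the RNA of the 2 arrays. With 1 array per condition no difference can be tested, so each difference is the RVO minus the control log2 signal, with 1 standing for 2-fold, and differences are counted by size. The only error these arrays hold is the disagreement between probe sets of the same gene, a pooled SD of 0.19 over 118 genes, which covers neither the array nor the animal.

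Both arrays carried retinal RNA, with control log2 signals from 8.37 to 12.99 for 14 genes of rods and cones, of which 13 were lower in the RVO array, with a median of -0.43 over the 14. Genes of some other cell types differed far more: 15 of 20 skeletal muscle genes were higher by over 2-fold, as were 14 of 17 genes of microglia and macrophages and 9 of 14 of fibroblasts and connective tissue. Some of these genes were under 5 in control and passed the limit through the RVO array alone. They were 5 of the muscle genes, 2 of microglia and macrophages and 2 of fibroblasts. Of 16 retinal ganglion cell genes 7 were lower by over 2-fold. A lower share of a cell type and less RNA per cell cannot be told apart in whole retina.

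The chaperone genes as a whole differed little between the arrays. Of 70 members, 1 exceeded 2-fold upward in the RVO retina, Hspb1, and 1 downward, Hspa12a. Among all 12724 named genes past the same limit, 3.50% were higher and 0.479% lower by over 2-fold, and a single member on either side, or 1.43%, is too few to set apart from that background. That background also holds 324 genes that were under 5 in control and passed through the RVO array alone, as no member did. The median difference was -0.05 for the members and -0.04 for all genes. Quartiles lay at -0.14 and 0.12 for the members and at -0.20 and 0.15 for all genes. At a looser limit of 1.5-fold, 3 members were higher, beside 7.25% of all genes, and 2 were lower, beside 3.03%. The other 65 members, or 92.9%, lay within 1.5-fold, against 89.7% of all genes.

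**Figure D1:**
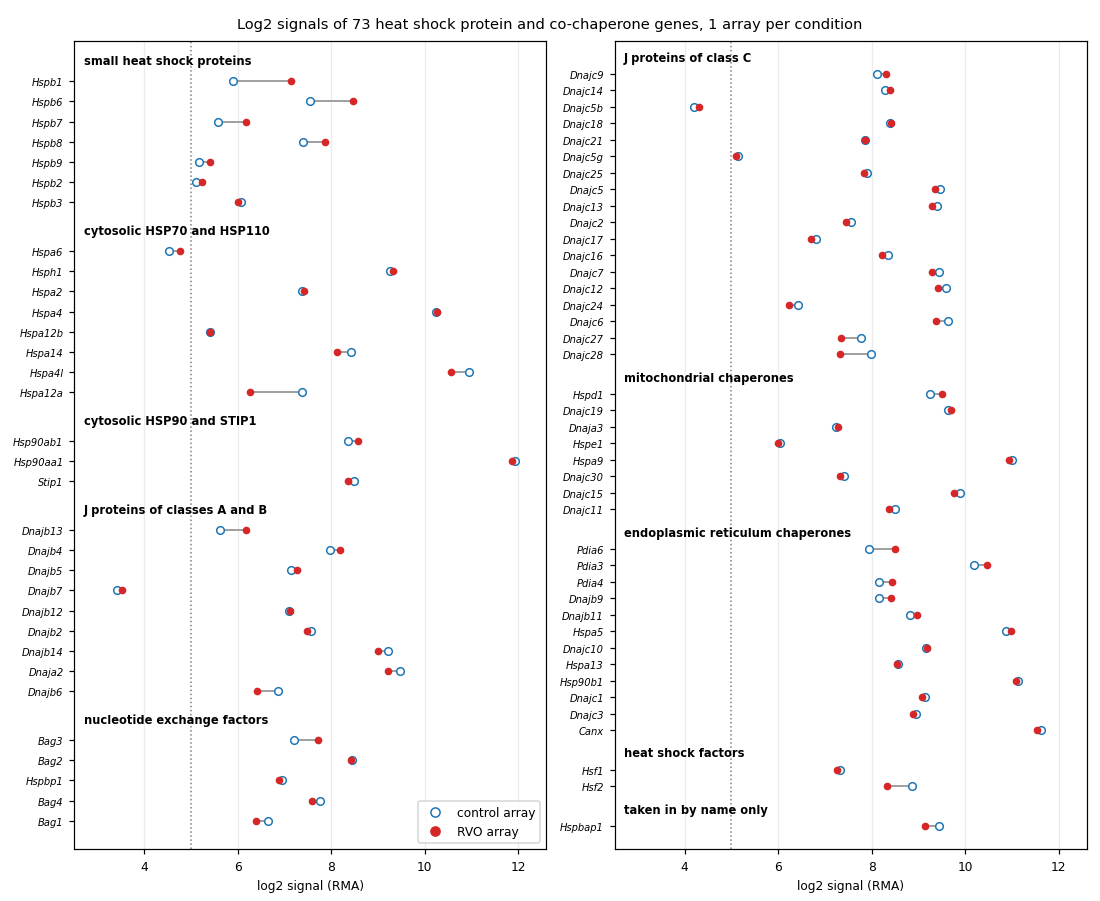
Log2 RMA signal (x axis) of each of the 73 genes, grouped by role, on the control array (open circles) and the RVO array (filled circles), with the limit of 5 dotted. The longest lines belong to Hspb1 and Hspb6, with the RVO signal on the right, and to Hspa12a, with the RVO signal on the left.

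Bright probe sets, whose signals stand farthest above background, differed least. For 22 members with a mean signal of 9 or more, none passed 1.5-fold, against 6.94% of 2277 genes in that range, and the median size of the difference was 0.10 against 0.16. For 33 members with a mean signal from 7 to under 9, 2 passed 1.5-fold, against 9.73% of genes. The 10 members with the highest mean signals, all at 9.65 or above, differed by between -0.40 and 0.28, and 7 of them by less than 0.1. Both members beyond 2-fold were among the 15 with a mean signal under 7. In that range 5.46% of all genes passed 2-fold in either direction, and the median size of the difference was 0.19 for the members and 0.21 for all genes. At 1.5-fold 3 of these 15 members passed, or 20.0%, against 12.2% of genes, again too few to set apart from that background.

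The small heat shock proteins held the 3 highest differences of all members. Of 7 genes, 6 lay above 0, against 5452 of all 12724 named genes, and the median of the 7 was 0.46. Upward of 1.5-fold were 3 of the 7, beside 7.25% of all genes. All but Hspb6 and Hspb8 had a mean signal under 7, where 12.2% of all genes passed 1.5-fold in either direction. Hspb1, a regulator of actin filaments that is induced in many stressed cells, measured 5.89 in control and 7.14 in RVO retina, a difference of 1.25 or 2.38-fold. Larger differences were found for 309 of 12724 genes. Hspb1 rests on 1 probe set, named by its symbol in the platform annotation, and the gene identifier given there was not found in the RefSeq gene table. Hspb6, the heat shock protein of smooth and striated muscle also called HSP20, had 7.53 and 8.47. At 0.93, or 1.91-fold, it was the closest of all members to the 2-fold limit from below. Hspb7, which is abundant in heart and skeletal muscle, had 5.58 in control and 6.18 in RVO retina, a difference of 0.61.

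The other small heat shock proteins were closer to 0. Hspb8, which works with Bag3 to send damaged proteins to autophagy, had 7.40 in control and 7.86 in RVO retina, a difference of 0.46. Hspb9, a gene of the testis in humans, had 5.16 and 5.41, a difference of 0.25. Hspb2 and Hspb3, which form a complex in muscle, differed least of the family. Their differences were 0.12, from 5.11 to 5.23, and -0.07, from 6.07 to 6.001, and that of Hspb3 turned above 0 when a trend with signal was removed. The 4 genes with the larger differences in the family were thus Hspb1, Hspb6, Hspb7 and Hspb8, while Hspb2 and Hspb3 were within the disagreement between probe sets of a gene.

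Most markers of skeletal muscle and of connective tissue were higher in the same array, while those of Müller glia, the radial glia of the retina, lay on both sides of 0. The 20 skeletal muscle genes had control signals from 4.04 to 7.99 and RVO signals from 5.44 to 10.38, and their signals on the linear scale summed to 1259 in control and 6961 in RVO retina. All 20 lay above 0, with a median of 2.69, led by Myl1, a myosin light chain of fast fibres, at 4.36. The fibroblast genes summed to 2445 and 7862, with a median of 1.15, and 12 of 14 lay above 0. The exceptions were Pdgfra at -0.41 and Thy1 at -0.46, and Thy1 is also in the list of ganglion cell genes. Gfap, the intermediate filament of reactive glia, had 6.87 in control and 8.07 in RVO retina, 2.29-fold and the highest difference of the 10 Müller glia genes, whose median was 0.52. Of these genes 7 lay above 0 and 3 below, namely Rlbp1 at -0.67, Glul at -0.56 and Kcnj10 at -0.37, which serve the visual cycle, glutamate recycling and potassium buffering in these cells. Genes of microglia and macrophages, all 17 of which lay above 0, had a median of 1.81. What part these cell types had in the signals of the small heat shock proteins was not tested. The lens genes, in which Crygs stood alone at 4.47, had a median of -0.15 over 8 genes. Cryab, the small heat shock protein αB-crystallin, whose gene lies next to Hspb2 in the RefSeq gene order, had 10.69 in control and 11.00 in RVO retina.

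**Figure D2:**
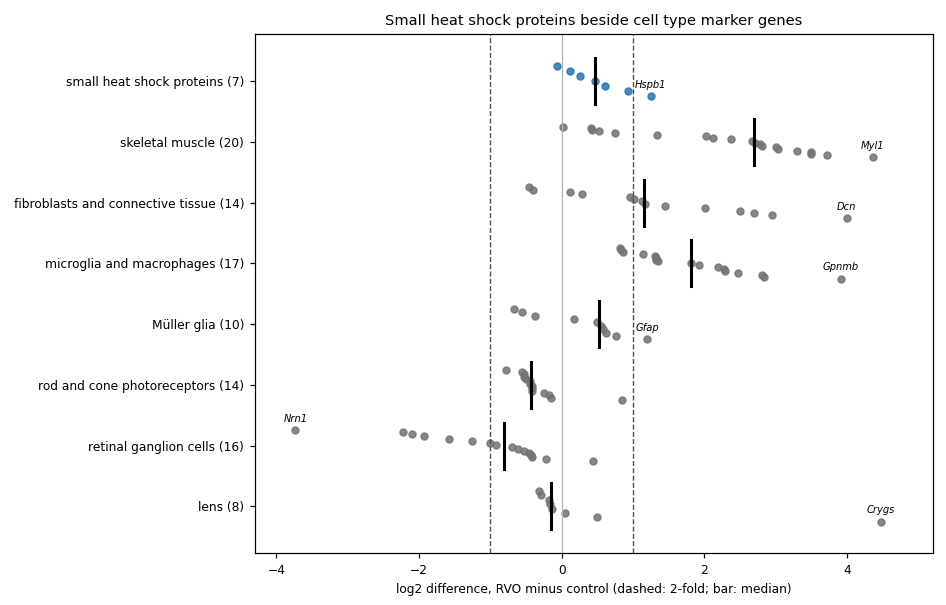
Log2 difference (x axis, RVO minus control) of the small heat shock proteins (top row) and of cell type marker genes past the limit of 5, 1 point per gene, with medians as bars and the number of genes in parentheses. The small heat shock proteins reach 1.25 and have a median of 0.46, close to 0.52 for Müller glia. Medians are higher for skeletal muscle at 2.69, microglia and macrophages at 1.81 and fibroblasts at 1.15. Those of rods and cones, ganglion cells and lens are below 0, at -0.43, -0.81 and -0.15.

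Cytosolic HSP70 and HSP110 genes had a median of 0.00 over 7 genes. Hspa12a, a distant relative of HSP70 that is expressed in neurons of the brain, had 7.37 in control and 6.26 in RVO retina, a difference of -1.11 or 0.463-fold. Only 42 of 12724 genes had a lower difference. It was the sole member beyond 2-fold on that side, and the gap to the next lowest member was 0.47. Of 16 genes of retinal ganglion cells, such as Nrn1 at -3.73 and Nefl at -1.25, 15 were lower in the same array, with a median of -0.81. So were 13 of 14 genes of rods and cones, with a median of -0.43. All 12 genes of bipolar and amacrine cells were lower too, with a median of -0.37. The part of these neurons in the signal of Hspa12a was not tested.

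Its paralog Hspa12b, known from endothelial cells, had 5.41 in both arrays, with no difference to the last digit, as was the case for 772 of 26193 probe sets. The HSP110 genes, which release ADP from HSP70, differed in size. Hspa4 had 10.25 and 10.26, and Hsph1, which heat induces, had 9.26 and 9.32. Hspa4l had 10.95 in control and 10.55 in RVO retina, a difference of -0.40. Hspa2, an HSP70 of testis and brain, differed by 0.04, and Hspa14, the HSP70 of the ribosome, by -0.29, from 8.42 to 8.13.

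The cytosolic HSP90 system was nearly level. Hsp90aa1, the stress-inducible isoform, had the highest mean signal of all members and measured 11.93 in control and 11.85 in RVO retina. Hsp90ab1, the constitutive isoform, had 8.36 and 8.57, a difference of 0.21. Stip1, the adaptor that passes client proteins from HSP70 to HSP90, had 8.49 and 8.35. All 3 genes lay within 0.21 of 0, which is about the disagreement between probe sets of a gene. Of 15 further co-chaperones of HSP90 and HSP70, none passed 1.5-fold in either direction, against 10.3% of all genes, and their median was -0.12. The lowest of them was Fkbp5, an immunophilin induced by glucocorticoids, at 8.46 in control and 7.90 in RVO retina, a difference of -0.57. The highest was Unc45b, a myosin chaperone of striated muscle, at 0.19 from a signal of 5.02.

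Heat shock factors were not higher in the RVO array. Hsf1, the factor that drives the heat shock response and is controlled mostly after translation, had 7.32 in control and 7.25 in RVO retina. Hsf2, a factor of development and differentiation that can pair with Hsf1, had 8.85 and 8.33. Its difference of -0.52, or 0.696-fold, was the third lowest of the members. Among 7 other heat shock factors and regulators the median was -0.02. These included the lens factor Hsf4, at 5.10 in control and 4.87 in RVO retina, and the autophagy receptor Sqstm1, at 9.05 and 9.47, which had the highest difference of that list. Hsf5 had the lowest, at -0.54 from a signal of 5.37.

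**Figure D3:**
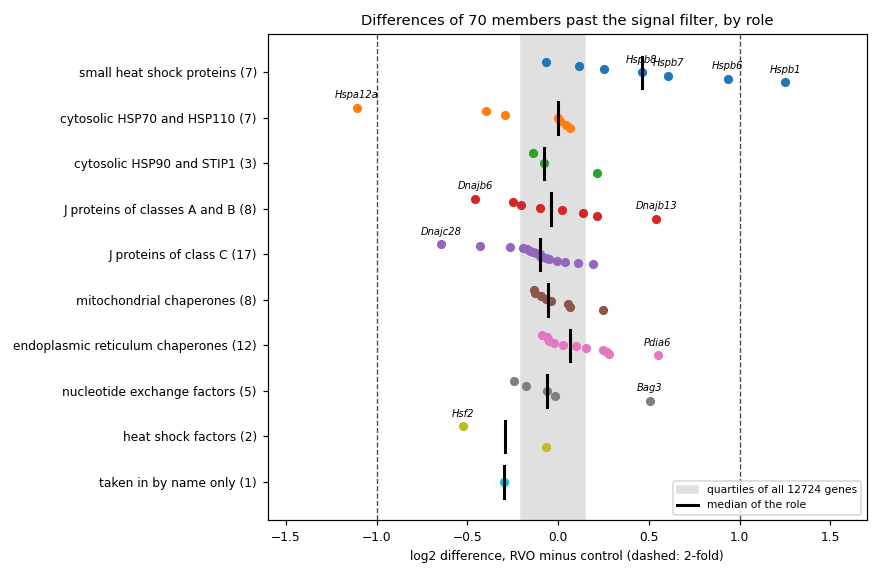
Log2 difference (x axis, RVO minus control) of the 70 members past the limit, 1 point per gene, in rows by role with the number of genes in parentheses, medians as bars, the quartiles of all 12724 genes shaded and 2-fold dashed. The rows of J proteins leave out those counted with mitochondria or the endoplasmic reticulum. The median of the small heat shock proteins, at 0.46, lies to the right of the shaded range, those of the heat shock factors and of Hspbap1 lie to its left, and the medians of the other roles lie inside it.

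J proteins of classes A and B deliver unfolded proteins to HSP70. Dnajb9 at 0.25 and Dnajb11 at 0.15 are counted with the endoplasmic reticulum and Dnaja3 at 0.06 with mitochondria. The 8 genes left had a median of -0.04, with 4 above and 4 below 0. Dnajb13, a protein of the radial spokes of motile cilia and sperm tails, had 5.63 in control and 6.17 in RVO retina, a difference of 0.54. Dnajb6, a suppressor of protein aggregation, had 6.86 and 6.40, a difference of -0.46. The rest of the 8 genes ran from -0.25 for Dnaja2, which had 9.46 and 9.21, to 0.21 for Dnajb4.

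J proteins of class C, which serve narrow tasks in the cell, leaned to the negative side by small amounts. Dnajc1, Dnajc3 and Dnajc10 are counted with the endoplasmic reticulum, and Dnajc11, Dnajc15, Dnajc19 and Dnajc30 with mitochondria. Those ran from -0.135 for Dnajc11 to 0.07 for Dnajc19, with only Dnajc10 and Dnajc19 above 0. Of the 17 genes left, 14 lay below 0, or 82.4%, against 56.0% of all genes, with a median of -0.10. With other scalings 12 or 13 lay below 0, or 70.6% to 76.5%, against 48.4% to 56.6% of all genes. The median then lay between -0.12 and -0.08. Each of these medians was smaller in size than the pooled SD of 0.19 between probe sets of a gene. Dnajc28 had 7.97 in control and 7.33 in RVO retina, and its difference of -0.64 was the only one beyond 1.5-fold in this class. Dnajc27, which carries a small GTPase domain, had 7.77 and 7.34, a difference of -0.43.

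The J proteins of synapses and endosomes were among these genes. Dnajc6, the auxilin that strips clathrin from vesicles in neurons, had 9.63 in control and 9.37 in RVO retina. Dnajc5, the cysteine string protein of synaptic vesicles, had 9.46 and 9.36. Dnajc13, a protein of endosomes, had 9.40 and 9.30. Their differences of -0.26, -0.10 and -0.10 were smaller in size than the median of -0.43 for rod and cone genes. On the positive side the largest was that of Dnajc9, a histone chaperone, at 0.19. This class held no gene that was higher by over 1.5-fold, against 7.25% of all genes.

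Mitochondrial chaperones differed by no more than 0.24 in either direction, with a median of -0.06 over 8 genes. Hspa9, the mitochondrial HSP70 also called mortalin, had 11.00 in control and 10.93 in RVO retina. Dnajc15 and Dnajc19, J proteins of the inner membrane that assist protein import, were level too, with 9.89 and 9.77 for the former and 9.62 and 9.69 for the latter. Hspd1 and Hspe1 encode HSP60 and HSP10, the barrel and the lid of the mitochondrial chaperonin, and are the one pair of members that are neighbours in the RefSeq gene order. Hspd1 had 9.25 and 9.50, a difference of 0.24. Hspe1, the one member with more than 1 probe set, had 6.03 and 5.99 in the brighter probe set and 5.98 and 5.70 in the other. Its differences were thus -0.04 and -0.28, both on the other side of 0 from Hspd1. Of 8 further genes of mitochondrial protein quality control none passed 1.5-fold, against 10.3% of all genes. They ran from Grpel2, which acts on mitochondrial HSP70, at -0.39 to the disaggregase Clpb at 0.33.

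Chaperones of the endoplasmic reticulum had a median of 0.06 over 12 genes, of which 7 lay above 0, against 5452 of all 12724 genes. Pdia6, Pdia3 and Pdia4, protein disulfide isomerases that form and reshuffle disulfide bonds, had the 3 highest differences of the 12. Pdia6 had 7.94 in control and 8.49 in RVO retina, a difference of 0.55 or 1.46-fold, the fourth highest of all members. Pdia3, which acts on glycoproteins held by calnexin, had 10.18 and 10.46, a difference of 0.28. Pdia4 had 8.15 and 8.42, a difference of 0.27. All 3 isomerases were higher than the disagreement between probe sets of a gene and none reached 1.5-fold.

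The lumenal HSP70 and HSP90 of this compartment were level in comparison. Hspa5, the chaperone BiP that binds the sensors of the unfolded protein response, had 10.87 in control and 10.97 in RVO retina. Hsp90b1, the HSP90 of the endoplasmic reticulum, had 11.14 and 11.09. Canx, the membrane lectin calnexin, had 11.63 and 11.54. Of their J proteins Dnajb9, a repressor of the sensor IRE1, differed by 0.25 and Dnajb11, a cofactor of BiP, by 0.15. Dnajc3, which restrains the kinase PERK, differed by -0.06.

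Genes around these chaperones were counted from lists. Of 16 regulators and effectors of the unfolded protein response none passed 1.5-fold, against 10.3% of all genes. Their median was 0.11, and 11 lay above 0, against 5452 of all 12724 genes. Manf, a secreted protein of that response, had 7.69 in control and 8.12 in RVO retina, the highest difference of the list at 0.43. The sensor kinases Eif2ak3, which encodes PERK, and Ern1, which encodes IRE1, differed by 0.23 and 0.18. Hyou1, an HSP70 relative of the endoplasmic reticulum, differed by -0.12.

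Of 20 other folding enzymes of the endoplasmic reticulum, none was beyond 2-fold, 3 exceeded 1.5-fold upward and none downward, beside 7.25% and 3.03% of all genes, with a median of 0.21. The 3 were prolyl isomerases of the FKBP family. Fkbp10, which assists collagen folding, had 6.41 in control and 7.33 in RVO retina, a difference of 0.91. Fkbp9 had 7.80 and 8.56, a difference of 0.75, and Fkbp11 had 5.74 and 6.45, a difference of 0.71. Ppib, a prolyl isomerase of procollagen, had 9.99 and 10.41. Serpinh1, the collagen chaperone HSP47, had 5.86 and 5.91. In the same arrays the collagen genes of the fibroblast list differed by 1.17 for Col1a1, 1.13 for Col3a1, 1.01 for Col1a2, 0.28 for Col6a3 and 0.12 for Col6a2, and their part in the signals of the folding enzymes was not tested. The lowest gene was Fkbp14, a further member of that family, at -0.46.

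**Figure D4:**
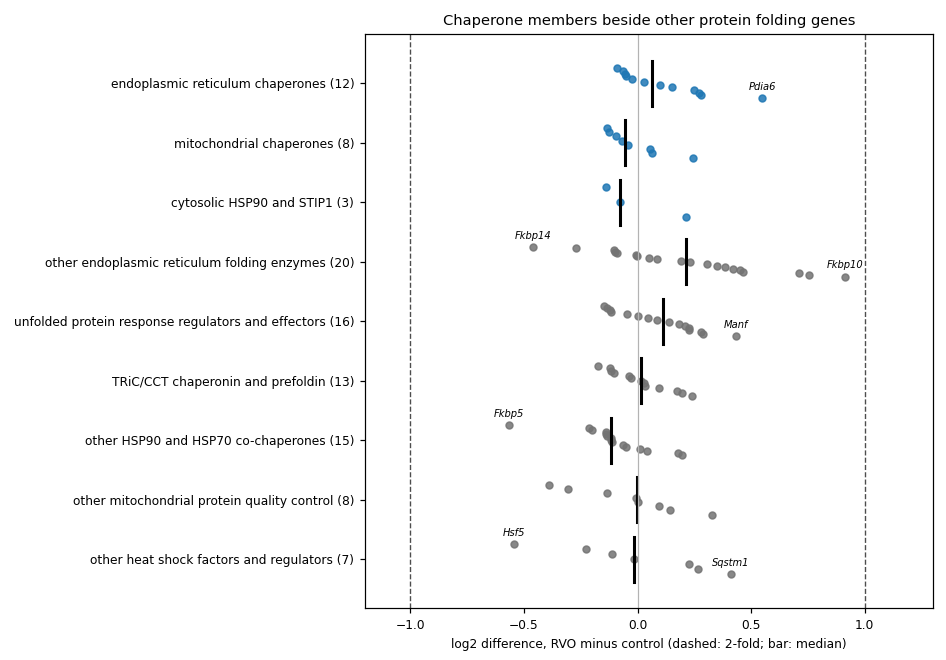
Log2 difference (x axis, RVO minus control) of chaperone members of 3 roles (top rows) and of 6 lists of other protein folding genes, 1 point per gene, with medians as bars, the number of genes in parentheses and 2-fold dashed. No gene in these rows passes 2-fold, and the row of other endoplasmic reticulum folding enzymes has the highest median, 0.21, and the highest gene, Fkbp10 at 0.91.

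The cytosolic chaperonin TRiC, which folds actin and tubulin, and its partner prefoldin were level. Their 13 measured genes ran from -0.18 for Cct7 to 0.24 for Pfdn2, with a median of 0.02. Nucleotide exchange factors of HSP70 had a median of -0.06 over 5 genes. Bag3, the partner of Hspb8 in selective autophagy, stood apart from them, with 7.20 in control and 7.71 in RVO retina, a difference of 0.50 or 1.42-fold. Bag1, which links HSP70 to the proteasome, had 6.64 and 6.40, a difference of -0.24. Bag2, Bag4 and Hspbp1 lay between -0.18 and -0.02. Hspbap1, which is named for its binding to Hspb1 and is not a chaperone, entered by its symbol and had 9.45 and 9.15, a difference of -0.30.

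**Figure D5:**
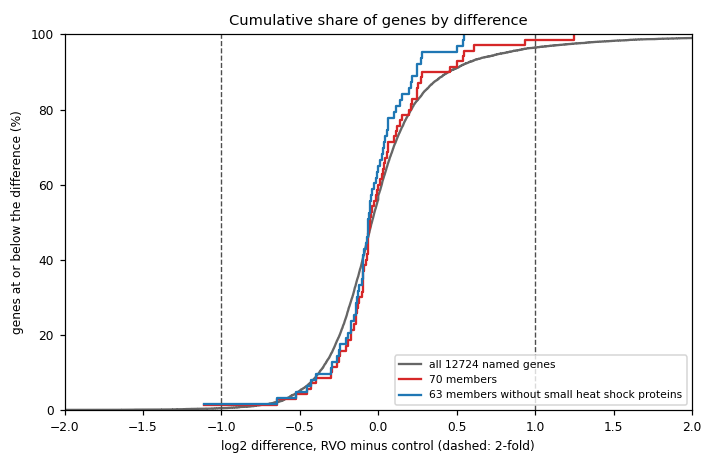
Cumulative percent of genes (y axis) at or below each log2 difference (x axis, RVO minus control, drawn from -2 to 2) for all 12724 named genes, the 70 members and the 63 members without small heat shock proteins, with 2-fold dashed. The curve of the 63 members reaches 100% at 0.55, the difference of Pdia6, while 3.50% of all genes lie beyond the upper 2-fold line.

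Without the small heat shock proteins the spread of the members narrowed on the upper side alone. The 63 other members ran from -1.11 to 0.55, with a median of -0.06, and 61 of them lay within 1.5-fold. Their SD over genes was 0.26, against 0.33 for all 70 members and 0.47 for all named genes. Of the 70 members 42, or 60.0%, differed by less than the disagreement between probe sets of a gene, as did 51.3% of all genes.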

How the data were processed

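Rabbit Gene 1.0 ST arrays were hybridized with retinal RNA taken at day 7, 1 array for the control and 1 for RVO. RMA was run by the authors in R 3.6.0, and its output, a log2 signal per probe set, is what was deposited. RMA subtracts background and equalizes the signal distributions of the arrays, so a shift shared by all genes would not show. They were used as they stand, for 26193 probe sets, with medians of 6.25 (control) and 6.23 (RVO). In the platform annotation 15816 probe sets have 1 symbol, 376 several and 10001 none, and genes were named only from the first. The probe set with the highest mean signal was read for each gene, and genes under 5 in both arrays were omitted. With 1 array per condition no test was run and the number of arrays limits the precision. Whether probe sets of close paralogs or pseudogenes share sequence was not checked.

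The roles into which the members were grouped, like the members and gene lists, were chosen with earlier results of these data known. Genes given in full were members beyond or within 0.15 of 2-fold, the 10 highest and lowest differences and the 10 highest mean signals, heat shock factors and small heat shock proteins. Other members, and genes of other lists that were neither the highest nor the lowest of their list, were named for their role after their values were seen. Of 73 members 71 matched RefSeq's rabbit gene table (mOryCun1.1) by identifier, all but Hspb1 and Dnajb4, and that table gave gene order only. Promoter motifs, which had been planned, were not analysed here. Alternatives were other signal limits, probe set rules, thresholds and scalings (centring on the median, quantile normalization repeated, a lowess trend removed). The scripts ran in Python 3.11.15 with pandas 2.3.3 and statsmodels 0.14.6 and were tested on simulated data.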

Additional observations from a re-analysis of the deposited data

How the results depend on the processing

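The counts of members beyond 2-fold, 1 higher and 1 lower, were the same with no signal limit, with a limit of 6 and with both arrays held to 5. They were also the same with either other probe set rule and under the 3 other scalings. Given the signals, only the scalings could have changed them. Hspb1 and Hspa12a have 1 probe set each and passed a limit of 6. All 70 members were above 5 in both arrays, and the genes brought back without a limit differed by 0.22 or less. At 3-fold the counts were 0 and 0, and at 1.5-fold 3 and 2. Without the small heat shock proteins 0 members were higher by over 2-fold. The median of the list of other heat shock factors and regulators was 0.23 with a limit of 6 or with both arrays held to 5, where fewer genes were left. Medians of the members, of each role and of the other lists moved by less than 0.19 otherwise, the pooled SD between probe sets of a gene. Of 556 values of single members under these alternatives 555 moved by less than that, the exception being Hspe1, at -0.28 in its dimmer probe set. Most of the 556 could not move. A signal limit does not alter a difference, and probe set rules could alter only that of Hspe1. Only the 3 other scalings bore on the rest. No paired analysis was possible because each condition has 1 array. The signals of Hspb2, Hspb9 and Dnajc5g lie near the limit of 5, where a difference can be understated.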
